A study of Mus musculus with 6 samples.

Results

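Complement components and regulators were examined in gastrocnemius muscle of mice with C26 tumors, as a list of 9 gene names. Of these, 8 had values among the 13363 genes measured, namely C1qa, C1qb, C1qc, C1ra, C3, C4b, Serping1 and Cd59a, and C1s1 was not analysed here. C26 is a mouse colon adenocarcinoma line whose growth in BALB/c mice causes wasting of body weight and muscle, known as cancer cachexia. Male Balb/c mice, purchased at 6 weeks of age and acclimated for 1 week, received 500000 C26 cells under the skin of the flank, and the control mice carried no tumor. RNA of whole muscle was sequenced from 3 C26 mice and 3 control mice, and the values are FPKM (sequenced fragments scaled by the length of the transcript and the size of the library), so that levels can be compared between genes. The labels number the replicates and do not say more about which mice they came from, so the p-values measure the spread between these samples.

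Complement is a cascade of plasma proteins that marks cells and debris for removal. In its classical pathway, C1q binds a target and activates the proteases C1r and C1s, which cleave C4 and C2 and so lead to cleavage of C3, the point where all pathways meet. Resident macrophages are a main source of C1q in tissues, fibroblasts and endothelial cells make C1r, C1s and C1 inhibitor, and the liver supplies most of the plasma C3 and C4. Host cells are protected by soluble inhibitors, such as the C1 inhibitor encoded by Serping1, and by membrane proteins, such as CD59, which blocks the pore formed by the terminal components.

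The 3 C1q chains are encoded side by side on chromosome 4 of GRCm38.p6, C1qb and C1qc on its minus strand. C1qb spans 136880126 to 136886200, C1qc 136889801 to 136892936 and C1qa 136895916 to 136898844, with 3600 bases between C1qb and C1qc and 2979 between C1qc and C1qa. C1ra lies on chromosome 6 from 124512621 to 124523440, C4b and C3 on chromosome 17 from 34728139 to 34743902 and from 57203967 to 57228136, and Serping1 and Cd59a on chromosome 2 from 84765360 to 84775444 and from 104095753 to 104115410. The bases just before the annotated gene start, from RefSeq, were available for 5 of the 8 genes. Those of C1qb and C1qc are shown because these neighbours varied together across the muscles, and those of C3 and Cd59a because they held matches to motifs that the others lacked. Capitals mark matches, on either strand, to GAGGAA (the core bound by the myeloid factor PU.1), the core of the interferon-stimulated response element (GAAA, any 2 bases, GAAA), TTGCNNAA (C/EBP) or TTCNNNGAA (STAT), and no marked match overlaps another.
C1qb, chr4:136886201-136886450, minus strand: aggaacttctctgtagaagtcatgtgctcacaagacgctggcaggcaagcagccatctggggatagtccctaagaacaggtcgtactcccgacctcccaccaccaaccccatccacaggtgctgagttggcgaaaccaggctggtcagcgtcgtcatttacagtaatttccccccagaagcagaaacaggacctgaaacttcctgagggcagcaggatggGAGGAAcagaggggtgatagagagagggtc
C1qc, chr4:136892937-136893164, minus strand: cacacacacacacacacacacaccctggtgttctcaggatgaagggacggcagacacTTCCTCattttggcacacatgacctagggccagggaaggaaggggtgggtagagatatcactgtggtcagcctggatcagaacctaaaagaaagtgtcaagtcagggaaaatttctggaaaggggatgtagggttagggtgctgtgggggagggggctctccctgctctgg
C3, chr17:57228137-57228386, minus strand: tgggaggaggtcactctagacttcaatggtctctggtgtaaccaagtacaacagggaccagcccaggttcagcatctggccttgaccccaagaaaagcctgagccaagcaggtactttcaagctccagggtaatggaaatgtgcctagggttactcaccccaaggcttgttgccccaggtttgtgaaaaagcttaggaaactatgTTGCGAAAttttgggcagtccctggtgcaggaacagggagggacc
Cd59a, chr2:104095551-104095752, plus strand: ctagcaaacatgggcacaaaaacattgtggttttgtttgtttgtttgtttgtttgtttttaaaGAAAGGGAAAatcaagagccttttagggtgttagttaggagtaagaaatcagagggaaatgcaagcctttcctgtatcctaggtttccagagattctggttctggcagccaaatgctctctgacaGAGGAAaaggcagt
GAGGAA was found before C1qb, C1qc (read as TTCCTC) and Cd59a, and 23.3% of 32851 promoter windows of 250 bases held it. The TTGCNNAA match lay before C3, against 9.56% of all windows, and the interferon-stimulated response element core before Cd59a, against 2.98%. TTCNNNGAA, in 7.02% of all windows, was in none of the 5, and the C1ra window held none of the 4 motifs. The windows of C1qc and Cd59a were shortened to end before the annotated gene, and a match describes letters only, not a bound site.

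C1q, C1r, C4, C3 and the regulators C1 inhibitor and CD59a all had values in the muscles of both groups, and none passed the test between the groups. The test called none of the 8 genes at an adjusted p under 0.05 (0 higher and 0 lower; limma, Benjamini-Hochberg adjustment over all 13363 genes). By the same test, 33.8% of all genes were called, 19.4% as higher and 14.5% as lower in C26 muscles (2590 and 1931 genes), whereas FPKM as deposited gave 1678 higher and 2504 lower. The count at an unadjusted limma p under 0.05 was also 0 of 8, against 47.1% of all genes, and an ordinary linear model without moderation gave 0 of 8 before and after adjustment, against 41.6% and 18.6% of all genes. On the normalised log2 scale, the 2 groups overlapped for all 8 genes, whereas they did not overlap for 53.5% of all genes. The median log2 fold change of the 8 genes was -0.29, with 5 below 0, beside a median of -0.05 with 53.0% below 0 over all genes. A smaller share of calls does not show equal levels, since the standard errors of these 8 genes, 0.243 to 0.503 on the log2 scale, all exceeded the median of 0.199 over all genes.

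**Figure D1:**
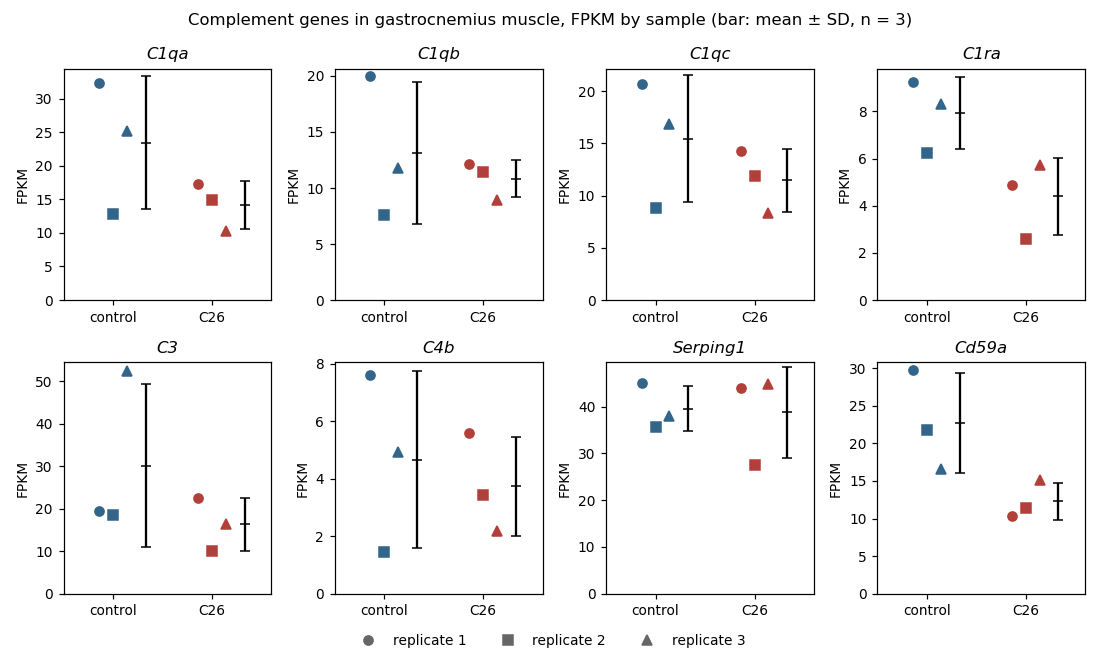
FPKM of the 8 complement genes (y axis, linear from 0) in 3 control and 3 C26 muscles, with the mean ± SD of each group beside the points. C1ra and Cd59a are the genes whose FPKM ranges do not touch (C1ra 2.58 to 5.74 against 6.23 to 9.24), and control replicate 3 stands apart for C3 at 52.4.

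C1q, the recognition molecule, is built from A, B and C chains in equal number. C1qa had 17.3, 15.0 and 10.3 FPKM in C26 muscles and 32.4, 12.9 and 25.1 in control muscles. Control replicate 2 lay within the C26 range and the other controls above it. The log2 fold change of C1qa was -0.43 (SE 0.32, 95% interval -1.19 to 0.33, adjusted p = 0.322, limma). It was -0.74 with quantile normalization and -0.73 to -0.17 with a muscle left out.

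C1qb had 12.1, 11.5 and 8.94 FPKM in C26 muscles and 20.0, 7.55 and 11.8 in control muscles. Its highest and its lowest value were both in controls, and the log2 fold change was 0.04 (SE 0.30, interval -0.69 to 0.76, adjusted p = 0.933, limma). Without TMM scaling it stayed at 0.07, whereas it was -0.17 with FPKM as deposited and -0.19 with quantile normalization, so no direction can be given for C1qb. C1qc had 14.2, 11.8 and 8.29 FPKM in C26 muscles and 20.7, 8.85 and 16.8 in control muscles. Control replicate 2 again lay among the C26 muscles. The log2 fold change of C1qc was -0.16 (SE 0.30, interval -0.87 to 0.56, adjusted p = 0.699, limma).

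The 3 chains ranked the muscles in nearly one order. C1qa and C1qc were highest in control replicate 1, followed by control replicate 3, C26 replicates 1 and 2, control replicate 2 and C26 replicate 3. On the log2 scale across the 6 muscles, Pearson r was 0.954 between C1qa and C1qc, 0.865 between C1qb and C1qc and 0.775 between C1qa and C1qb. Summed over the chains, FPKM were 73.1, 29.3 and 53.7 in control muscles and 43.7, 38.3 and 27.5 in C26 muscles, so the controls alone differed by more than the group means. Within the controls the highest value exceeded the lowest 2.52-fold for C1qa, 2.65-fold for C1qb and 2.34-fold for C1qc. Among C26 muscles these ratios were 1.68, 1.35 and 1.72.

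**Figure D2:**
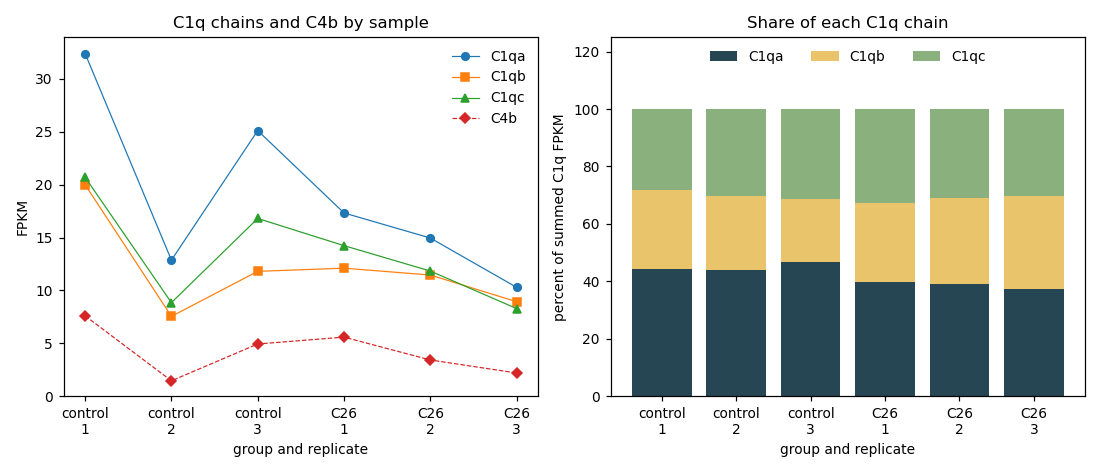
Left, FPKM of the C1q chains and C4b (y axis) in each muscle (x axis); right, the share of each chain in the summed C1q FPKM of a muscle, in percent. All 4 genes are highest in control replicate 1 and lowest in control replicate 2 or C26 replicate 3, and the C1qa share is 43.97% to 46.74% in controls and 37.41% to 39.67% in C26 muscles.

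The balance between the chains, which does not depend on how libraries are scaled to each other, was less variable than their level. C1qa made up 44.3%, 44.0% and 46.7% of the summed C1q FPKM in control muscles and 39.7%, 39.1% and 37.4% in C26 muscles, without overlap. C1qb made up 27.4%, 25.8% and 22.0% in controls and 27.7%, 29.9% and 32.5% in C26 muscles. The share of C1qc was 29.9% ± 1.50 (SD, n = 3) in controls and 31.2% ± 1.27 in C26 muscles. Ratios were compared for all 28 pairs of the 8 genes with two-sided exact permutation tests, for which 0.1 is the smallest p that 3 against 3 samples allow. The ratio of C1qa to C1qb was 1.62, 1.71 and 2.13 in controls and 1.43, 1.31 and 1.15 in C26 muscles, a log2 difference of -0.48 (exact permutation p = 0.1, 0.7 adjusted over the 28 pairs). That of C1qa to C1qc was 1.45 to 1.57 in controls and 1.22 to 1.26 in C26 muscles, a log2 difference of -0.28 (exact permutation p = 0.1). Between 2 genes drawn from the whole table, the ranges of the ratio lay apart for 51.1% of all 89278203 pairs. Among the 28 pairs of complement genes this was so for 4, the others being C1ra with Serping1 and Serping1 with Cd59a.

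C1ra, one of a pair of mouse genes for the C1r protease, had 4.88, 2.58 and 5.74 FPKM in C26 muscles and 9.24, 6.23 and 8.32 in control muscles. All controls were above all C26 muscles in FPKM, but not after scaling, and the summed FPKM of the whole table were lower in the C26 libraries (531061 to 585169) than in the controls (626992 to 688300). C1ra and Cd59a were the 2 of 8 genes with FPKM ranges apart, while 53.3% of all genes had ranges apart and 34.6% had them apart with C26 lower. The log2 fold change of C1ra was -0.62 (SE 0.30, interval -1.34 to 0.11, adjusted p = 0.154, limma). Of the 50-base words in annotated C1ra transcripts, the length of the reads, 50.8% also occur in another gene, nearly all of them in C1rb. C1rb itself was listed at 0.03 to 0.42 FPKM, and how reads that fit both were divided cannot be seen from the values. Across the 6 muscles, the genes most like C1ra included Mrpl20 and Med12 (both Pearson r = 0.975 on the log2 scale).

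C4b, the mouse C4 gene, had 5.59, 3.43 and 2.2 FPKM in C26 muscles and 7.60, 1.46 and 4.94 in control muscles. The C26 values lay inside the range of the controls, which differed 5.21-fold among themselves. Its log2 fold change was 0.05 (SE 0.50, interval -1.16 to 1.26, adjusted p = 0.945, limma), and it turned to -0.14 with FPKM as deposited. C4b shares 34.6% of its 50-base words with C4a, which had 0.15 to 0.60 FPKM, and the C4b to C4a ratio was 9.73 to 15.4 in controls and 12.7 to 15.1 in C26 muscles. Across the 6 muscles, C4b was the gene most like C1qc of 11222 genes ranked (Pearson r = 0.961 on the log2 scale), and C1qa was the next (r = 0.954). P2rx4, an ATP-gated channel, followed (r = 0.945), and C4b itself was most like C1qc, Gapdhs (r = 0.937) and Pnp (r = 0.912). The muscles are 3 and 3 of 2 groups and share their scaling, so these coefficients describe this set only. C1qa was most like Pirb, an inhibitory receptor of myeloid cells (r = 0.979), the Wnt inhibitor gene Dkk2 (r = 0.971) and Rgs12 (r = 0.960). C1qb was most like Slc27a3 (r = 0.969), the lectin receptor gene Clec1a (r = 0.948) and Erbb2 (r = 0.937).

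C3, the central component, had 22.5, 10.1 and 16.4 FPKM in C26 muscles and 19.5, 18.6 and 52.4 in control muscles. Control replicate 3 stood above all others, and the other controls lay within the C26 range. The log2 fold change was -0.55 (SE 0.45, interval -1.63 to 0.52, adjusted p = 0.365, limma), and without control replicate 3 it was -0.12. In control replicate 3 the B cell gene Cd79b had 134 FPKM and the leukocyte gene Cd37 114, against 0.05 to 0.82 and 0.50 to 2.21 in the other muscles. Only these 2 of 8 B cell markers had values here, and their part in the C3 level was not tested. Gimap6, a GTPase gene of lymphoid cells, was most like C3 (r = 0.983), with 51.0 FPKM in control replicate 3 and 12.03 to 22.3 in the other muscles, followed by Setd6 and Relb (both r = 0.969).

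Serping1 had the highest mean FPKM of the 8 genes in both groups, although C3 was above it in control replicate 3. Its values were 43.9, 27.6 and 44.8 FPKM in C26 muscles and 45.0, 35.7 and 37.9 in control muscles, so the groups lay over each other with C26 replicate 2 lowest. The log2 fold change was 0.16 (SE 0.24, interval -0.43 to 0.74, adjusted p = 0.632, limma), which became -0.05 with FPKM as deposited and -0.25 with quantile normalization. Relative to Serping1, C1ra, its target protease, was at 0.205, 0.174 and 0.220 in controls and at 0.111, 0.0936 and 0.128 in C26 muscles. The log2 difference of this ratio was -0.85 (exact permutation p = 0.1, the smallest possible, and 0.7 adjusted over the 28 pairs). Relative to Cd59a, Serping1 was at 1.51, 1.64 and 2.28 in controls and at 4.26, 2.42 and 2.97 in C26 muscles, a log2 difference of 0.81 (exact permutation p = 0.1, 0.7 adjusted over the 28 pairs). Tefm, a mitochondrial transcription factor, followed Serping1 most closely (r = 0.986), before Arhgap6 (r = 0.974) and Fuca2 (r = 0.970).

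Cd59a came nearest to the threshold. It had 10.3, 11.4 and 15.1 FPKM in C26 muscles and 29.8, 21.8 and 16.6 in control muscles. In FPKM every control was above every C26 muscle, with control replicate 3 just above C26 replicate 3. After scaling, the log2 fold change was -0.63 (SE 0.28, interval -1.29 to 0.04, adjusted p = 0.122, limma). It passed with FPKM as deposited (log2 fold change -0.82, adjusted p = 0.0481, limma) and without control replicate 3 (-0.87, adjusted p = 0.0398, limma), and over the other 13 settings its adjusted p was 0.0505 to 0.309. Ksr1, a scaffold protein of the MAP kinase pathway, was the gene most like it (r = 0.995), followed by Palmd and Lmod1 (both r = 0.991).

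Cd59b, the neighbouring paralog 9962 bases away, also encodes a CD59 protein. It had 1.75, 0.81 and 2.52 FPKM in C26 muscles and 8.50, 11.2 and 7.82 in control muscles, and it fell (log2 fold change -1.97, SE 0.35, adjusted p = 0.0100, limma). The call held with each muscle left out in turn. It held under 8 of 9 other settings, the exception being the linear model without moderation (adjusted p = 0.0517). The Cd59a to Cd59b ratio was 3.51, 1.94 and 2.13 in controls and 5.89, 14.1 and 5.99 in C26 muscles. This log2 difference of 1.70 does not depend on scaling (exact permutation p = 0.1, the smallest possible, and 0.4 adjusted over the 4 pairs of paralogs or partner proteases compared). Of the 50-base words of Cd59a, 3.87% also occur in Cd59b, and of those of Cd59b 20.1% occur in other genes, most often in Efr3a.

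In order of mean FPKM the genes ran Serping1, C3, C1qa, Cd59a, C1qc, C1qb, C1ra and C4b in both groups. Among C26 muscles the ranges of neighbours were apart between Serping1 (38.7 ± 9.68 FPKM, SD, n = 3) and C3 (16.3 ± 6.23), and between C1qb (10.8 ± 1.67) and C1ra (4.40 ± 1.63). All other neighbours in C26 muscles, and all neighbours in controls, overlapped. The intervals of C1qb, C1qc and Serping1 stayed within 1 log2 unit of 0, whereas those of the other 5 genes reached below -1 and that of C4b above 1 as well.

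**Figure D3:**
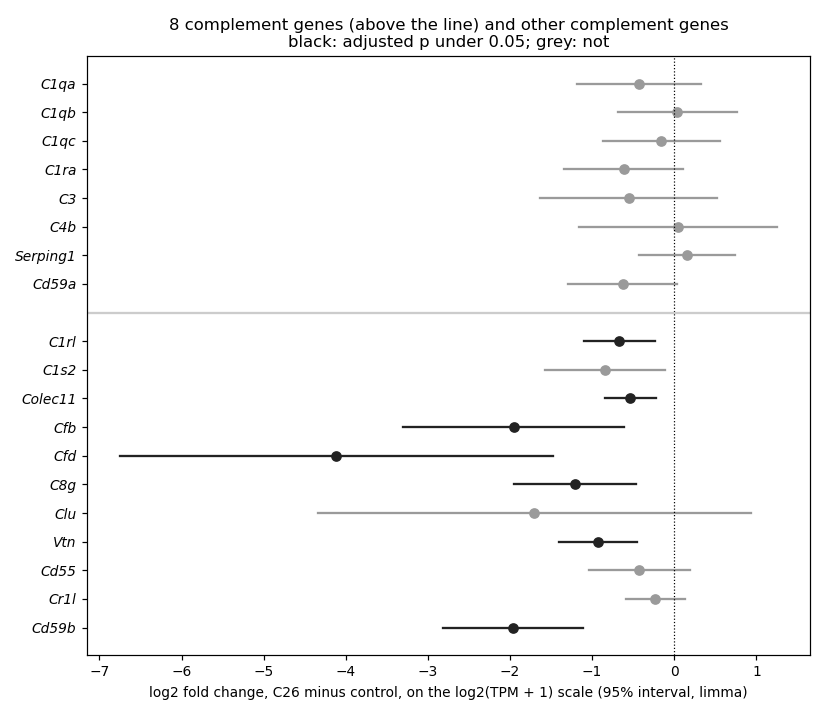
Log2 fold changes (x axis, C26 minus control, with 95% intervals from limma) of the 8 genes, above the line, and of the other complement genes that passed the test or had a mean of at least 10 FPKM. All 8 intervals cross 0, and the 7 black points, all left of 0, have an adjusted p under 0.05.

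Other complement genes included some that passed the test. Of 47 looked for and reported here, 31 had values, and 7 were lower in C26 muscles at an adjusted p under 0.05 (limma), beside 14.5% of all genes. At an unadjusted p under 0.05 there were 12 of 31 in either direction by limma (38.7%, beside 47.1% of all genes) and 9 by the ordinary linear model, which left 1 after adjustment. Their median log2 fold change was -0.28. In the alternative pathway, which amplifies C3 cleavage, the protease genes Cfd and Cfb were called lower. Cfd, encoding factor D (adipsin), had 26.03, 15.2 and 1.92 FPKM in C26 muscles and 591, 227 and 61.8 in controls, and fell (log2 fold change -4.12, SE 1.10, adjusted p = 0.0309, limma). Cfb, encoding factor B, had 1.03, 0.48 and 1.23 FPKM in C26 muscles and 9.17, 1.81 and 10.9 in controls, and fell (log2 fold change -1.96, SE 0.56, adjusted p = 0.0382, limma). For Cfd the log2 fold change ranged from -3.05 without C26 replicate 3 to -5.01 without control replicate 3. With 1 muscle left out, Cfd passed without control replicate 3 (adjusted p = 0.0206, limma) and otherwise had 0.0525 to 0.0970, and Cfb passed without control replicate 2 (0.00940) and otherwise had 0.0579 to 0.122. Neither passed with the ordinary linear model (adjusted p = 0.108 for Cfd and 0.119 for Cfb), nor Cfb with quantile normalization (0.0662, limma). Properdin (Cfp), which stabilises the C3 convertase, did not pass (log2 fold change -0.96).

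Vtn, encoding vitronectin, an inhibitor of the terminal complex, fell from 12.4 ± 1.08 to 5.41 ± 1.25 FPKM (log2 fold change -0.93, adjusted p = 0.0156, limma), a call lost without C26 replicate 1, C26 replicate 2 or control replicate 1 (adjusted p = 0.0653, 0.0539 and 0.0609). The other lower genes were at or under about 2 FPKM, namely C8g of the terminal pathway (1.93 ± 0.30 to 0.44 ± 0.42 FPKM), the C1r-like protease gene C1rl (0.67 ± 0.23 to 0.15 ± 0.03) and the lectin gene Colec11 (0.51 ± 0.12 to 0.13 ± 0.03). C8g lost its call without control replicate 1 or 2 or C26 replicate 1 or 2 (adjusted p = 0.0732 to 0.0974, limma), Colec11 without control replicate 1 or C26 replicate 1 or 2 (0.0749 to 0.0929), and C1rl without any muscle but control replicate 3 (0.0584 to 0.113). With quantile normalization C8g, Colec11 and C1rl did not pass (adjusted p = 0.0909, 0.169 and 0.208, limma), at log2 fold changes of -0.86, -0.25 and -0.35 against -1.21, -0.54 and -0.67. With a pseudocount of 0.1 the log2 fold changes of these 3 genes were -2.081, -1.435 and -1.567 (adjusted p = 0.03156, 0.00766 and 0.01355, limma). With the ordinary linear model C8g, C1rl and Vtn did not pass (adjusted p = 0.0882, 0.0706 and 0.0522).

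Of the 50-base words of C1s2, 26.9% occur in its paralog C1s1. How reads that fit both were divided cannot be seen from the values. C1s2 had 6.49, 3.61 and 7.60 FPKM in C26 muscles and 12.8, 9.21 and 15.6 in controls. It did not pass (log2 fold change -0.84, adjusted p = 0.0742, limma), but passed with FPKM as deposited (0.0459), with quantile normalization (0.0462) and without C26 replicate 3 (0.0485). Without C26 replicate 2 the log2 fold change of C1s2 was -0.52 (adjusted p = 0.144, limma), and the ordinary linear model gave an adjusted p of 0.163. The ratio of C1ra to C1s2 was 0.533 to 0.720 in controls and 0.715 to 0.755 in C26 muscles (exact permutation p = 0.2), and the ranges overlapped. C2, the protease that C1s cleaves next, had 0.33 to 0.37 FPKM in C26 muscles and 0.68 to 4.43 in controls (log2 fold change -1.34, adjusted p = 0.0532, limma). The membrane regulators Cd55 and Cr1l had log2 fold changes of -0.42 and -0.23 and did not pass, although Cd55 passed without C26 replicate 2 (-0.71, adjusted p = 0.0387, limma) and was at -0.20 without C26 replicate 3. Clusterin (Clu), another terminal complex inhibitor, had 134 FPKM in control replicate 3 and 3.37 to 10.6 in the other muscles, and did not pass (log2 fold change -1.70, adjusted p = 0.261, limma). Its log2 fold change was -0.37 without control replicate 3 and -2.61 without control replicate 2. None of the 7 receptor genes with values was called, beside 33.8% of all genes, and 7 genes are too few to set against that share. Their median log2 fold change was 0.0080 with 3 below 0. Other genes had positive fold changes and did not pass, among them the ficolin gene Fcna (1.04), the C1q-binding protein gene C1qbp (0.98), the carboxypeptidase gene Cpn1 (0.54), C5ar1 (0.36) and Vsig4 (0.32).

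Muscle fibre genes were abundant in all muscles, with 10 markers summing to 60960 to 93600 FPKM in C26 muscles and 117900 to 118400 in controls. After scaling, 1 of the 10 was called higher and 1 lower, and their median log2 fold change was -0.13 with 5 below 0. In bulk muscle, fewer cells of a type and less RNA per cell cannot be told apart. Of 12 fibroblast markers 7 were called lower, among them Dpt (63.4 ± 30.8 to 12.4 ± 8.24 FPKM), while Dcn, the most abundant, did not pass (233 ± 6.38 and 164 ± 11.8), and the sums were 186 to 276 FPKM in C26 muscles and 506 to 687 in controls. Adipocyte markers were 5 of 10 lower and 1 higher, with sums of 675 to 950 FPKM in C26 muscles and 563 to 3760 in controls. The higher one was the lipase gene Pnpla2, without which the sums were 259.5 to 371 FPKM and 489.9 to 3625 FPKM. The median log2 fold change of the list was -2.92, with 9 of 10 below 0. Adipoq, among the 5 lower, fell from 89.1 ± 82.9 to 1.78 ± 1.48 FPKM (log2 fold change -4.66, adjusted p = 0.0196, limma). Fabp4, the most abundant, did not pass (log2 fold change -1.96, adjusted p = 0.0641, limma). The control with the lowest adipocyte sum, replicate 3, also had the lowest Cfd of the controls. Macrophage markers with values, 15 of 16, had 1 called lower (Tyrobp) and 0 higher, with sums of 44.1 to 303 FPKM in C26 muscles and 54.7 to 361 in controls. The median log2 fold change of that list was -0.66, with 10 of 15 below 0, and single genes weighed heavily in its sums. Of the 303 FPKM in C26 replicate 2, Cd68 alone gave 247, and the C1q chains there were at 11.5 to 15.0. Of the 361 FPKM in control replicate 3, Lyz2 gave 188. Of 10 endothelial markers, Kdr and Emcn were called lower, and sums were 84.9 to 89.5 FPKM against 99.1 to 156 in controls. Only 1 of 8 hepatocyte markers, Trf, and 1 of 8 T cell markers, Cd4, had values here. Of 11 neutrophil markers, 4 had values, of which S100a8 and S100a9 were called higher in C26 muscles, at 2.85 to 3.96 FPKM, and Csf3r and Cxcr2 did not pass (log2 fold changes 0.10 and -0.27). Interferon-induced genes summed to 17.4 to 18.7 FPKM in C26 muscles and to 421, 78.9 and 99.9 in control replicates 1, 2 and 3, with 8 of 12 called lower. Control replicate 1, highest in this list, also had the highest FPKM of all 8 complement genes except C3, although after scaling Serping1 was higher in C26 replicate 3. The part of these cell types and programs in the complement values was not tested.

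**Figure D4:**
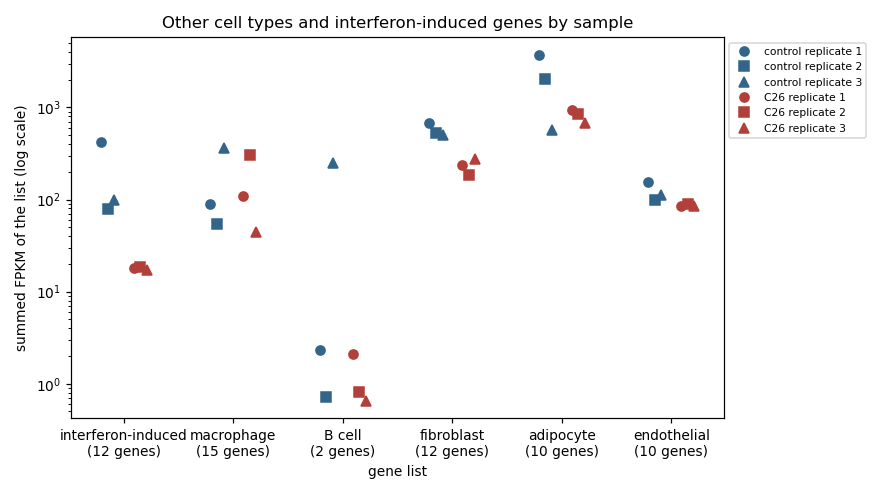
Summed FPKM (y axis, log scale) of marker genes of 5 cell types and of interferon-induced genes in each of the 6 muscles. Control replicate 3 has 248 FPKM of B cell genes against at most 2.32 elsewhere, and the interferon-induced genes sum to 78.9 or more in controls and at most 18.7 in C26 muscles.

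Leaving out 1 muscle moved the small differences of the complement genes without making any of the 8 but Cd59a pass. With control replicate 1 left out, the fold changes of C1qb, C1qc and C4b were 0.36, 0.07 and 0.46, and with control replicate 2 left out they were -0.22, -0.44 and -0.46. The fold change of C1ra went from -0.62 to -0.29 without C26 replicate 2, its lowest muscle. C1ra, C1qa, C3 and Cd59a stayed below 0 and Serping1 stayed above 0 in all 6 fits. Their sizes still moved, C1qa from -0.73 without control replicate 2 to -0.17 without control replicate 1. Serping1 went from 0.06 without C26 replicate 1 to 0.41 without C26 replicate 2.

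**Figure D5:**
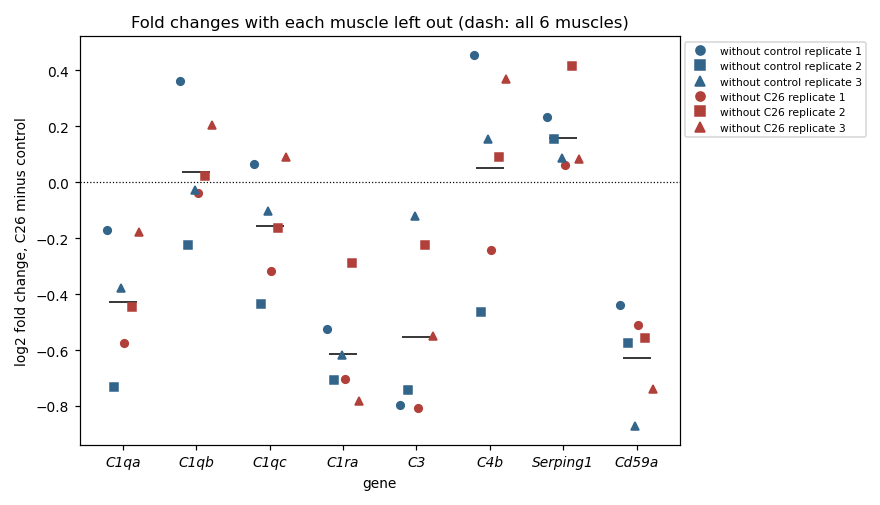
Log2 fold changes (y axis, C26 minus control) of the 8 genes from fits that each leave out 1 muscle, with the value of all 6 muscles as a dash. Leaving out control replicate 1 or 2 moves C1qb, C1qc and C4b to opposite sides of 0, and C3 is closest to 0, at -0.12, without control replicate 3.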

How the data were processed

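The deposited values are FPKM with 2 decimals, keyed by Entrez ID. The authors filtered out adaptor, low-quality and rRNA reads, mapped the remaining 50-base single-end reads against GRCm38.p5 using bowtie2, and obtained FPKM from RSEM. The submitters' processing notes list HISAT2 2.0.4, Bowtie2 2.2.5, RSEM 1.2.12 and mm9. The build behind the deposited FPKM was therefore not settled, and positions here are those of GRCm38.p6. Read counts were not analysed here, so depth and counting error are unknown.

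FPKM were rescaled to TPM, divided by unweighted TMM factors (trimming 30% of log ratios and 5% of mean levels), log2-transformed with a pseudocount of 1, which understates changes of low genes, and compared with limma 3.58.1 in R 4.3.3. Reported p-values are two-sided. Symbols were matched for 13327 genes. Ratios were taken from FPKM. The fit was tested on simulated data. Membership was set by gene name and used no measured value, but the members and gene lists were chosen with earlier results of these data known. Named were all members with values, other complement genes that were called or reached a mean of 10 FPKM in a group, the 3 genes of highest correlation with each member among genes of at least 1 TPM, and, of marker lists, genes among the 3 most abundant. C2, Cfp, Fcna, C1qbp, Cpn1, C5ar1, Vsig4, Cxcr2, Tyrobp, Kdr, Emcn, Efr3a and the paralogs C1rb and C4a were named after their values were seen. A complement gene outside the 9 and a gene of similar pattern are not reported here, and the former is not in the list counts. The alternatives were another pseudocount, a filter on low values, other scalings, a replicate block, other variance models and each muscle left out.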

Additional observations from a re-analysis of the deposited data

How the results depend on the processing

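The counts of complement genes moved with single settings, and the cause was not tested. Over all genes, 2590 were higher and 1931 lower, against 1678 higher and 2504 lower with FPKM as deposited, which turned the balance, 1526 higher and 959 lower with an ordinary linear model, and 1236 lower with the replicate block. Leaving out each muscle gave 1131 to 3311 higher and 669 to 2160 lower, both lowest without C26 replicate 1. Of the 8 complement genes, Cd59a alone passed, as 1 lower gene with FPKM as deposited or without control replicate 3, so that leaving out a muscle gave 0 to 1. Of the other complement genes reported here, 0 were higher and 7 lower by limma, against 2 higher with a pseudocount of 0.1 or an intensity trend, 5 with quantile normalization, 1 with the replicate block and 0 to 2 with a muscle left out. In the other direction, 4 were lower with quantile normalization, 1 with the ordinary linear model and 1 to 6 with a muscle left out. The log2 fold change of C1qb was -0.17 with FPKM as deposited, -0.19 with quantile normalization and -0.013 with precision-weighted TMM, an alternative chosen after seeing the data, and -0.22 to 0.36 with a muscle left out. That of C1qc was -0.44 to 0.090 and that of C4b -0.46 to 0.46 with a muscle left out, and C4b was at -0.14 with FPKM as deposited. Serping1 was at -0.055 with FPKM as deposited and -0.25 with quantile normalization. FPKM as deposited moved the median of all genes to -0.14. Same-numbered C26 and control muscles had deviations from their group means that correlated at -0.112 to -0.0394 across genes. With 3 muscles in a group this cannot settle whether the numbers pair mice, and the labels do not say. With the replicate block none of the 8 complement genes passed, C1s2 did (adjusted p = 0.0454, limma), and C1rl, Colec11 and C8g did not (0.0621, 0.0688 and 0.0690). Since read depth is unknown, counting error could not be separated from differences between mice, and fits without 1 muscle leave a group with 2 samples.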
